A study of Mus musculus with 20 samples.

Results

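Keratins were followed in tumors from RiboTagEC mice, in which endothelial ribosomes can be pulled out of a whole-tumor homogenate. The 8 genes described are Krt20, Krt7, Krt8, Krt18, Krt19, Krt5, Krt14 and Krt17, out of 54 keratin genes and 55866 genes in the count table. Krt20 was chosen by its measured values, since it has one of the largest log2 fold changes of 6-3-A6 over control IgG in the 6 immunoprecipitated libraries that the study kept. The other 7 were taken as keratins of simple and basal epithelia. For each of them the question was whether its mRNA followed the endothelial fraction or the whole tumor, in both treatment groups.

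All mice were females of the genotype Rpl22HA/HA x Cdh5CreERT2 on C57BL/6J, so that treated and control animals carried the same alleles. Tamoxifen (75 mg/kg, 5 days) was given from 3 weeks of age, and Py8119 murine mammary carcinoma cells were implanted in a mammary fat pad at 8 weeks. The hemagglutinin (HA) tag that Rpl22, a protein of the ribosome, carries depends on Cre driven by the endothelial gene Cdh5, so the implanted Py8119 cells carry no tag. The 6-3-A6 group received the anti-Notch4 antibody 6-3-A6 at 25 mg/kg, the control IgG group received mouse IgG, and both were dosed for 10 days from a tumor volume of about 30 mm3 by the sample labels (50 mm3 by the design text). From each of 5 tumors per treatment, the homogenate (input) and the anti-HA immunoprecipitate (IP) were sequenced, which gave 20 libraries in 4 groups of 5.

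Keratins are the intermediate filaments of epithelial cells, built from pairs of 1 type I and 1 type II chain. KRT8 (type II) and KRT18 (type I) form the filaments of simple epithelia, often with KRT7 or KRT19, whereas KRT5 (type II) and KRT14 (type I) fill basal keratinocytes and myoepithelial cells of the mammary gland. KRT20 is a type I keratin known from intestinal epithelium, urothelium and Merkel cells, and none of the 8 is a textbook marker of endothelium.

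Totals were between 11881214 and 26728205 counts per library (median 16942643). A floor of 3 counts, an approximate upper confidence limit for a count of 0 by counting error alone, is 0.105 to 0.315 CPM in these libraries. CPM are counts scaled to the library total and edgeR's TMM factors. Endothelial markers checked the fractions, with 18 of 19 listed genes tested and all 18 higher in IP in either treatment (median log2 fold change 4.35 in control IgG and 4.48 in 6-3-A6, where 8.28% and 12.8% of all genes tested were called higher), while Ecscr is listed at 0 in all libraries. For the 6-3-A6 libraries 1 label field names the opposite fraction from the title. The titles were kept as the fraction. Libraries titled IP had 945 ± 455 CPM of Pecam1 and libraries titled input had 52.7 ± 12.8 CPM (SD, n = 5 each). In bulk libraries, fewer cells of a type and less RNA per cell cannot be told apart.

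Krt20 was higher in the endothelial IP than in the whole tumor. In control IgG tumors 1 to 5 its level in input was 0.279, 0.508, 0.427, 0.0566 and 0.385 CPM, from 1 to 6 counts per library. In the IP of the same tumors it was 10.2, 5.06, 21.9, 2.78 and 3.77 CPM, from 44 to 399 counts. Every control IP library therefore lay above every control input library, and the lowest IP level came from tumor 4, which also had the lowest input level.

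In 6-3-A6 tumors 1 to 5 the Krt20 level in input was 0.397, 0.313, 0.676, 0.105 and 0.321 CPM, from 1 to 12 counts. The IP levels were 24.4, 9.07, 32.3, 20.7 and 4.11 CPM, from 80 to 762 counts. The fractions again did not overlap, and 4 of the 5 IP libraries stood above 9 CPM. The plot of keratin levels shows this separation beside the other keratins.

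**Figure D1:**
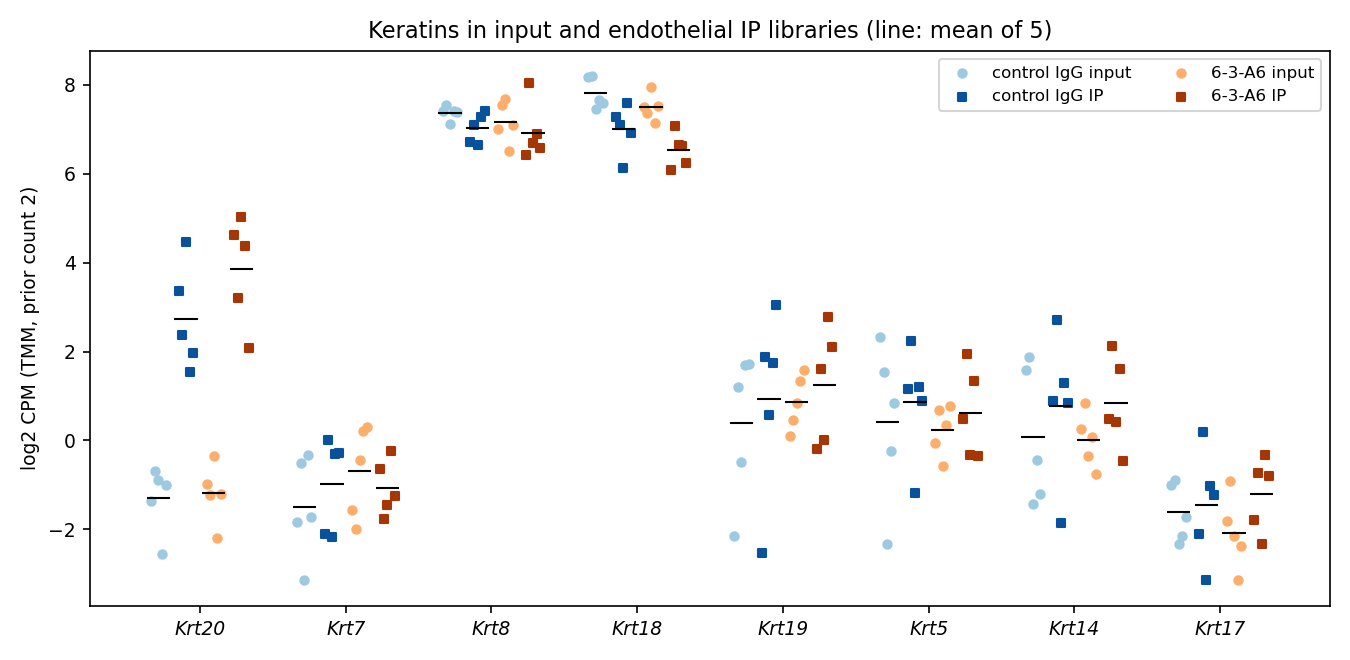
Levels of the 8 keratins as log2 CPM (TMM factors, prior count 2) in each of 20 libraries, where circles are input, squares are IP, colors are the treatments and black lines are means of 5 libraries. Krt20 is the keratin whose IP and input libraries are fully apart in both treatments, Krt8 and Krt18 are the most abundant, and Krt7 and Krt17 stay near the lower limit.

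The log2 fold change of IP over input for Krt20 was 4.75 (SE 0.68, adjusted p = 4.27e-05, edgeR quasi-likelihood test) in control IgG tumors and 5.56 (SE 0.68) in 6-3-A6 tumors, which is a 27-fold and a 47.1-fold difference. The control value fell to 4.07, or 16.8-fold, without control IgG IP 3, and to 3.68, or 12.8-fold, with the 6 tumors kept by the study. These folds rest on few input counts, 23 over the 5 control libraries and 33 over the 5 treated ones. Krt20 ranked 22 from the highest of 14488 genes tested in control IgG and 7 in 6-3-A6. The choice of Krt20 favored high values in 6-3-A6 IP 1, 3 and 4 and low values in control IgG IP 2, 4 and 5, and it used no input library. The value in 6-3-A6 is therefore a description, without a p. Krt20 also passed the filter on low counts through its IP libraries alone, since its input levels fell under it. Without the filter the control value was 4.82 (adjusted p = 1.27e-06), and the control call held in all 26 alternatives.

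Of 7 members tested, 1 was called higher in IP in control IgG, where 8.28% of all genes tested were, and 1 in 6-3-A6, where 12.8% were. That member was Krt20 in both, chosen in part by its 6-3-A6 IP values and let through the filter by IP, so nothing is read from these counts. Called lower in IP was 1 member in either treatment, Krt18, against 3.1% of all genes in control IgG and 13.5% in 6-3-A6. Krt17 had too few counts to be tested. With the tumor as a block, the genes called in control IgG rose from 1649 to 3249, and the members called stayed Krt20 and Krt18. By the cruder measure of groups of 5 that do not overlap, Krt20 was higher in IP in both treatments, as were 8.63% of genes in control IgG and 8.41% in 6-3-A6. Lower without overlap was Krt18 in 6-3-A6, as were 6.32% of genes, and none of the 7 members in control IgG, where 4.22% of genes were.

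Averaged over both treatments in the same fit, a contrast added after the values of each treatment were seen, Krt20 was 5.16 higher in IP on the log2 scale (SE 0.48), a description as it includes the libraries that chose the gene, and Krt18 was lower (−0.86, SE 0.17, adjusted p = 0.000618). Here 19.2% of all genes tested were called higher and 20.3% lower, and the other 5 members tested were not called. With the tumor as a block in this contrast, Krt14 was also called higher in IP (0.88, SE 0.30, adjusted p = 0.0275). Without 6-3-A6 IP 2, Krt8 was also called lower (−0.45, SE 0.15, adjusted p = 0.0238).

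**Figure D2:**
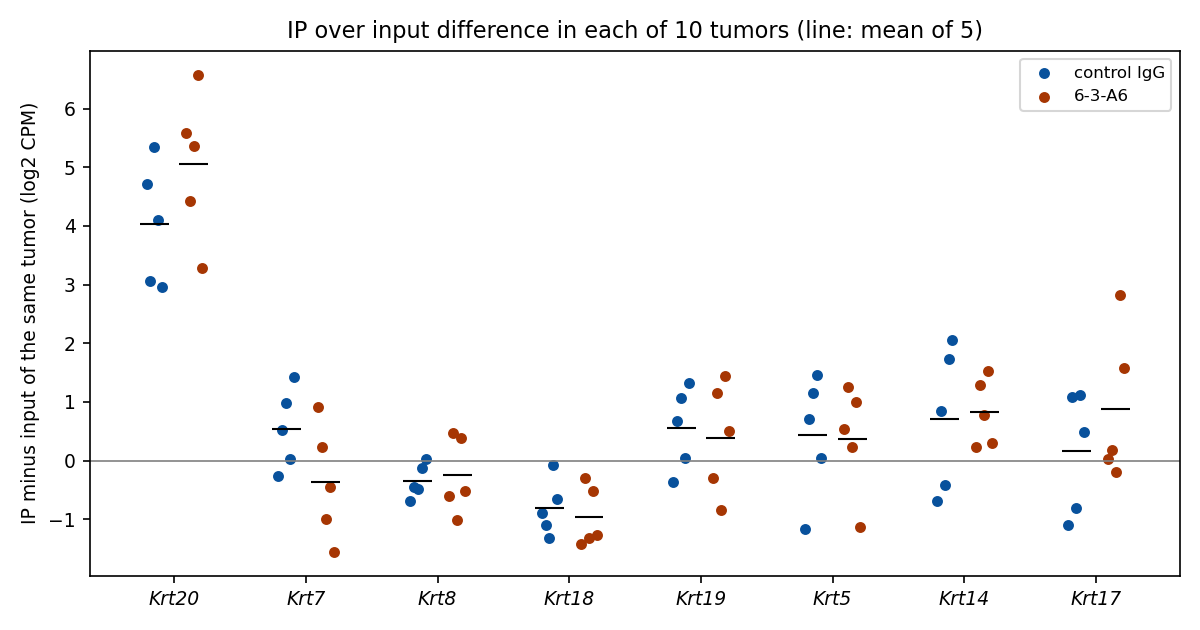
Difference of log2 CPM between IP and input of the same tumor for the 8 keratins, 1 point per tumor, with control IgG in blue, 6-3-A6 in brown and black lines for means of 5 tumors. Krt20 is higher in IP in 5 of 5 tumors of either treatment and Krt18 is higher in 0 of 5, while points of Krt7, Krt19, Krt5 and Krt17 lie on both sides of the grey line at 0.

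The level of Krt20 was also set against endothelial transcripts of the same library, as counts of Krt20 per 1000 counts of Pecam1, the endothelial adhesion molecule CD31. This ratio was 5.55 ± 2.94 (SD, n = 5) in control IgG input and 8.38 ± 4.16 (SD, n = 5) in control IgG IP. In 6-3-A6 input it was 6.57 ± 3.02 (SD, n = 5). Input and IP of the control tumors thus held Krt20 and Pecam1 in ratios whose ranges overlapped, 1.22 to 8.67 in input and 4.36 to 15.3 in IP. The input ratios are imprecise. They rest on 1 to 6 Krt20 counts per library in control IgG and 1 to 12 in 6-3-A6, and the 1.22 on 1 count. In 6-3-A6 IP 1 to 5 the ratio was 17.6, 47.4, 36.0, 18.2 and 3.70. Of these, 4 libraries lay above every control IP library and 6-3-A6 IP 5 below all of them. Because Krt20 was chosen for the difference between these treatments, the ratios are given without a test.

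**Figure D3:**
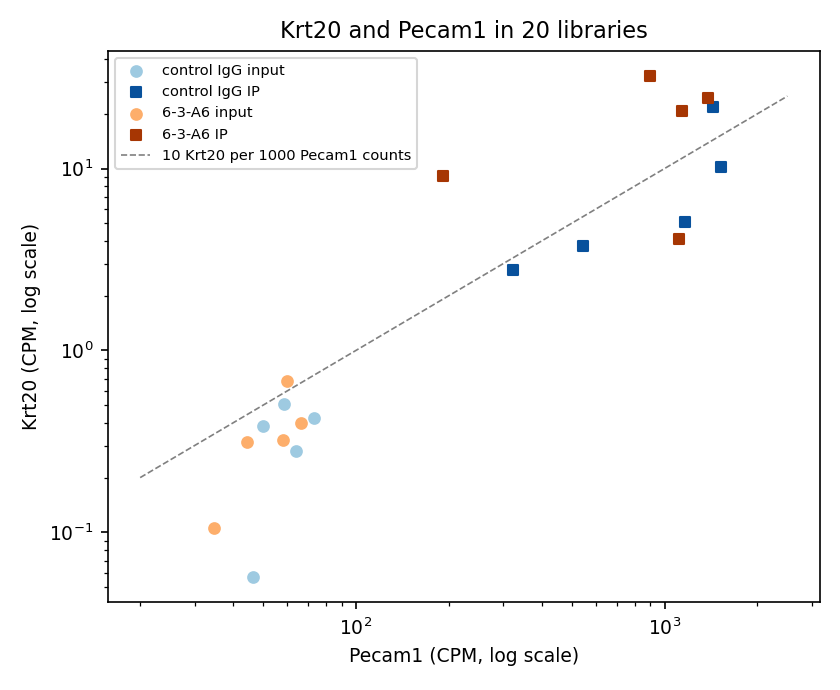
Krt20 against Pecam1 in 20 libraries, both in CPM on log axes, with circles for input, squares for IP and a dashed line at 10 Krt20 counts per 1000 Pecam1 counts. Input libraries fall at the lower left and IP libraries at the upper right along the line, and 6-3-A6 IP 2 combines the lowest Pecam1 level of the IP libraries with 9.07 CPM of Krt20.

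Over the 10 IP libraries, the level of Krt20 had a Pearson r of 0.61 with the mean log2 CPM of the endothelial markers, and Krt8 had an r of −0.87. The remaining members had values from −0.58 (Krt18) to −0.20 (Krt7). These correlations describe 10 libraries of 2 treatments that share a depth scaling, and no p was attached to them.

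The genes most like Krt20 over the 20 libraries, by Pearson r of log2 CPM, were Snrk (r = 0.99), Lpin3 (r = 0.98) and Ttc9 (r = 0.98). Their IP over input log2 fold changes in control IgG were 2.19, 2.33 and 4.27. The 2 fractions differ at many genes, and the part of the step from input to IP in these r was not tested. Among keratins, the r of Krt20 was 0.81 with Krt23 and 0.75 with Krt222, and −0.76 with Krt18.

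Krt20 lies on chromosome 11 (99319229 to 99328976, minus strand, GRCm39 as in the count table), and its span of 9748 bases overlaps no other listed gene. The 250 bases before its start are shown with those of Krt23, a second type I keratin that was called higher in the IP of 6-3-A6 tumors and not of control tumors, and of Krt18, which was lower. The sequences come from RefSeq on GRCm38.p6, a different build from the count table, where 6 of the 8 members had an entry. Capitals mark GGAA or its reverse complement TTCC, the core bound by ETS factors such as the endothelial regulator ERG. The 3 windows are chr11:99438154-99438403 (minus strand), chr11:99493121-99493370 (minus strand) and chr15:102027966-102028215 (plus strand).
Krt20: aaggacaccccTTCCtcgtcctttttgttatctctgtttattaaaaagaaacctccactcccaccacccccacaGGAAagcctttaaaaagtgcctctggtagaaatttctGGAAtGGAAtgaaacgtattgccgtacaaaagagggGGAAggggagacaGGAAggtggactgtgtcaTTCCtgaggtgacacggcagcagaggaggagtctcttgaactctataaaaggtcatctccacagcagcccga
Krt23: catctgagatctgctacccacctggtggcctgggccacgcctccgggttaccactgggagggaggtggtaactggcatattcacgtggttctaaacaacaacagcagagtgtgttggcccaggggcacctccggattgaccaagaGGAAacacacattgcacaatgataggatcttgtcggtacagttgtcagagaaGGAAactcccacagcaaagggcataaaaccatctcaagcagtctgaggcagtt
Krt18: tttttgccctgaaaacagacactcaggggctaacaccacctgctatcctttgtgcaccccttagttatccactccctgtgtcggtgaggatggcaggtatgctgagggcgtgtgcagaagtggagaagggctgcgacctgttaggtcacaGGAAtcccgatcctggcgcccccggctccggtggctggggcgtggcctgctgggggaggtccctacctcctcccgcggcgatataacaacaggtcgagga
The window of Krt20 holds 7 such cores, that of Krt23 holds 2 and that of Krt18 holds 1. Cores are not given for the other keratins, so no relation between cores and IP level is read from these 3. Of 32851 promoters of the same length, 93.5% hold at least 1 core, the median is 3, and 3.82% hold 7 or more. TATAAA was searched on the strand shown only. The Krt20 window holds 1, and 7.59% of promoters hold at least 1. A match of letters describes the sequence and was not tested as a binding site.

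Krt18 and Krt8, the partner chains of simple epithelium, were the most abundant keratins, at 53.9 and 20.4 CPM per kilobase of gene span in the 10 input libraries, against 0.0356 for Krt20. In the IP these values were 30.0, 17.1 and 1.38. Spans include introns in this table, so the values set against span understate genes with long introns. Both genes were detected with 863 counts or more in every library, in the endothelial fraction too.

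Krt18 was lower in IP. In control IgG tumors 1 to 5 it stood at 288.0, 294, 176, 201 and 192 CPM in input, and at 156, 138, 70.2, 192 and 122 CPM in IP. The IP level was the lower one in each of the 5 tumors, although the highest IP library, from tumor 4, overlapped the input range. In 6-3-A6 tumors 1 to 5 the input levels were 182, 166, 250, 141 and 183 CPM, and the IP levels were 67.5, 135, 99.6, 98.6 and 76.0 CPM. In treated tumors no IP library reached an input library.

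The log2 fold change of Krt18 was −0.77 (SE 0.24, adjusted p = 0.0453) in control IgG and −0.95 (SE 0.24, adjusted p = 0.00734) in 6-3-A6, so its input level was 1.70 and 1.93 times its IP level. The control call was lost in 14 of 26 alternatives, among them the fit without the filter on low counts (adjusted p = 0.110), the 6 tumors kept by the study (adjusted p = 0.325) and the fit on control libraries alone (adjusted p = 0.0558). It was also lost without control IgG input 1, 2 or 4, control IgG IP 1, 2, 3 or 5, 6-3-A6 input 1 or 2, or 6-3-A6 IP 3 or 4. The treated call held in all 26.

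Krt8 did not pass the test. Its levels in control IgG tumors 1 to 5 were 170.0, 187, 139, 170.2 and 168 CPM in input and 105, 138, 100.0, 155 and 171 CPM in IP. In 6-3-A6 they were 129, 188, 207, 90.7 and 137 CPM in input and 85.3, 262, 103, 118 and 95.1 CPM in IP. The fractions overlapped in both treatments, and 6-3-A6 IP 2 was the highest of all libraries. The log2 fold change was −0.32 (SE 0.27, 95% interval −0.85 to 0.21) in control IgG and −0.18 (SE 0.27, 95% interval −0.71 to 0.35) in 6-3-A6, with adjusted p of 0.480 and 0.647. Without 6-3-A6 IP 2 the value in 6-3-A6 was −0.58 (SE 0.22, adjusted p = 0.0615). A listed gene, Gm36026, overlaps the span of Krt8 and holds 1259 counts of its own over the 20 libraries.

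The balance of the partner chains was compared within each library, a measure chosen after the values were seen, which does not depend on scaling between libraries. The ratio of Krt8 to Krt18 counts was 0.748 ± 0.128 (SD, n = 5) in control IgG input and 1.06 ± 0.343 (SD, n = 5) in control IgG IP. In 6-3-A6 it was 0.813 ± 0.193 (SD, n = 5) in input and 1.34 ± 0.350 (SD, n = 5) in IP. The log2 ratio was 0.46 higher in control IP (two-sided exact permutation p = 0.103, adjusted over both treatments 0.103) and 0.71 higher in 6-3-A6 IP (exact p = 0.0159, adjusted 0.0317, smallest possible 0.00794). Without control IgG IP 1 the control difference was 0.61 and passed the threshold. Paired by tumor, the ratio was higher in IP in 9 of 10 tumors, by 0.59 ± 0.33 (SD, n = 10) on the log2 scale (two-sided exact permutation p = 0.00391). Within 6-3-A6 alone, where 5 of 5 tumors were higher, pairing gave an exact p of 0.0625, the smallest that 5 pairs allow.

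Krt19, a type I keratin of simple and ductal epithelia, varied widely between tumors in both fractions. In control IgG tumors 1 to 5 it was at 0.111, 2.20, 0.597, 3.11 and 3.21 CPM in input and at 0.0603, 3.58, 1.37, 3.22 and 8.17 CPM in IP. Tumor 1 was the lowest in both fractions, with 2 and 1 counts, and tumor 5 the highest in both. In 6-3-A6 tumors the levels ran from 0.964 to 2.89 CPM in input and from 0.760 to 6.80 CPM in IP. The IP over input log2 fold change was 0.83 (SE 0.78, adjusted p = 0.527) in control IgG, where it was 0.16 without control IgG IP 5, and 0.77 (SE 0.79, adjusted p = 0.485) in 6-3-A6.

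Krt7, the type II keratin of ductal epithelia, was rare, with 0 to 20 counts per library. Its mean level was 0.326 ± 0.294 CPM in control input, 0.505 ± 0.365 CPM in control IP, 0.632 ± 0.454 CPM in 6-3-A6 input and 0.402 ± 0.227 CPM in 6-3-A6 IP (SD, n = 5 each). Its log2 fold changes, 0.63 (SE 0.72) in control IgG and −0.57 (SE 0.71) in 6-3-A6, had opposite signs and neither passed the test (adjusted p = 0.612 and 0.575).

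The basal keratins Krt5 and Krt14 were low in both fractions. In control IgG tumors 1 to 5, Krt5 was at 4.90, 2.80, 0.0853, 0.736 and 1.67 CPM in input and at 2.11, 4.61, 0.330, 2.21 and 1.73 CPM in IP. Krt14 was at 2.90, 3.56, 0.256, 0.623 and 0.321 CPM in input and at 1.75, 6.45, 0.165, 2.33 and 1.69 CPM in IP. Tumor 3 was the lowest for both genes in both fractions. In 6-3-A6, Krt5 ran from 0.563 to 1.61 CPM in input and from 0.667 to 3.71 CPM in IP, and Krt14 from 0.482 to 1.67 CPM and from 0.616 to 4.26 CPM.

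Neither basal keratin passed the test of IP against input within a treatment. Krt5 had log2 fold changes of 0.10 (SE 0.67, adjusted p = 0.938) and 0.62 (SE 0.69, adjusted p = 0.527), and Krt14 of 0.70 (SE 0.73, adjusted p = 0.575) and 1.05 (SE 0.75, adjusted p = 0.303), in control IgG and 6-3-A6. Without control IgG IP 2 the control values turned to −0.36 for Krt5 and −0.040 for Krt14. Krt5 also turned negative without control IgG input 3 (−0.19) or 4 (−0.11). Krt14 was higher in IP in 3 of 5 control tumors and in 5 of 5 treated ones.

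Krt17, a type I keratin of basal and stressed epithelia, held 0 to 23 counts per library and 110 counts over all 20. Its levels ran from 0.0853 to 0.424 CPM in control input and from 0 to 1.03 CPM in control IP. In 6-3-A6 they ran from 0 to 0.418 CPM in input and from 0.0849 to 0.685 CPM in IP. The pooled counts were 36 in input and 74 in IP, IP was higher in 3 of 5 control and 4 of 5 treated tumors, and no test was made at this depth.

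Whether a keratin's level in IP moved with its level in the input of the same tumor was examined over 10 tumors for 7 members. Other genes were not examined this way, so no share over all genes stands beside these relations. For Krt19, Pearson's r was 0.89 (permutation p = 0.00163, adjusted over the 7 relations 0.0114) and Spearman's rho was 0.85 (permutation p = 0.003, adjusted 0.0210). Without the 2 tumors farthest from the median input level, control IgG 1 and 3, r was 0.76. Without control IgG 1 alone, r was 0.73 and the relation missed the threshold (adjusted permutation p = 0.0635). The r passed without any other single tumor (adjusted permutation p from 0.00980 to 0.0361). The rho missed the threshold without control IgG 1, 6-3-A6 2 or control IgG 5 (adjusted permutation p = 0.0730, 0.0580 and 0.0745) and with library totals not scaled by TMM (0.124).

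For Krt14, r was 0.72 (permutation p = 0.0165, adjusted 0.0573), rho was 0.72 (permutation p = 0.0231, adjusted 0.0807), and r without control IgG 1 and 2 was 0.75. For Krt5, r was 0.69 (permutation p = 0.0246, adjusted 0.0573), rho was 0.48 (permutation p = 0.168, adjusted 0.168), and r without control IgG 1 and 3 was 0.54. Both missed the adjusted threshold. Both passed it without tumor control IgG 1 (adjusted permutation p = 0.0486 for each), without control IgG 4 (0.0456 for each) or with a prior count of 0.5 (0.0415 for each). Krt5 also passed it without 6-3-A6 5 (adjusted permutation p = 0.0391) and Krt14 without control IgG 5 (0.0378), while the r of Krt5 fell to 0.44 without control IgG 3. Krt7 had r = 0.58 and rho = 0.58 (permutation p = 0.0821 and 0.0886, adjusted 0.144 and 0.155), and r was 0.56 without 6-3-A6 5 and control IgG 3.

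Krt18 had r = 0.43 and rho = 0.58 (permutation p = 0.218 and 0.0885, adjusted 0.305 and 0.155), falling to r = 0.15 without control IgG 1 and 2. Krt8 had r = 0.39 and rho = 0.49 (permutation p = 0.261 and 0.155, adjusted 0.305 and 0.168), with r = 0.42 without 6-3-A6 1 and 4. For Krt20, r was 0.36 and rho 0.49, given as a description, and r was 0.029 without control IgG 4, 0.17 without 6-3-A6 3 and 0.61 without 6-3-A6 4. With 5 tumors per treatment, no r within a treatment was computed.

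**Figure D4:**
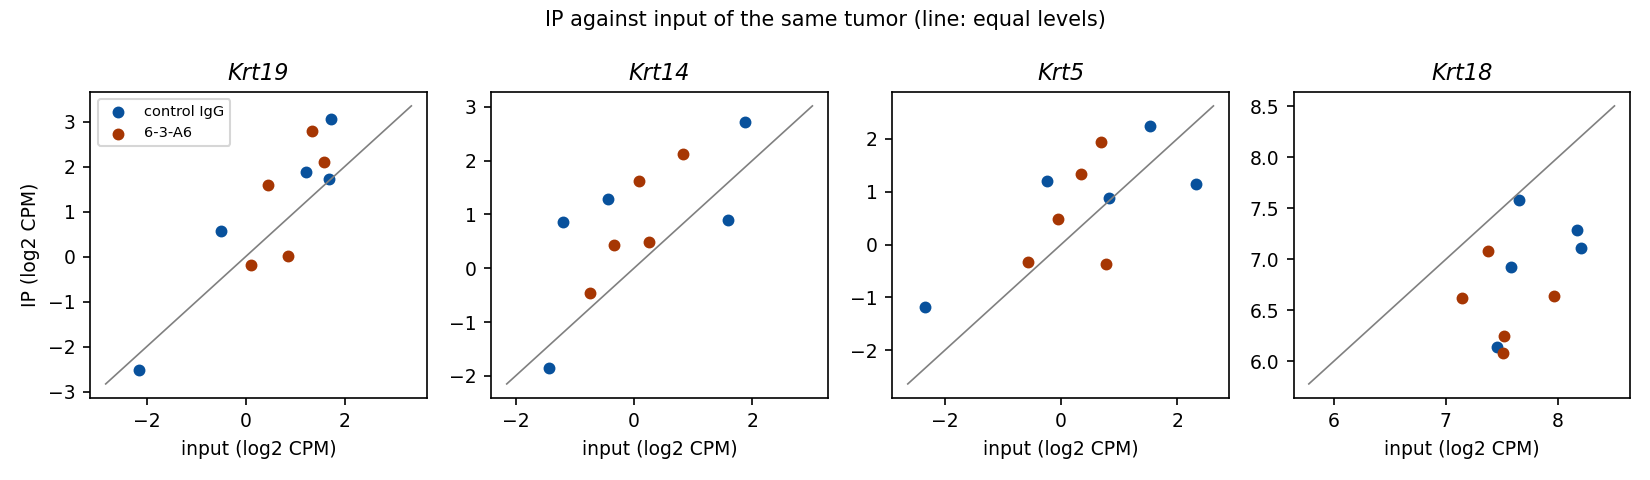
Level in IP against level in input of the same tumor, both as log2 CPM, for Krt19, Krt14, Krt5 and Krt18, with 10 tumors per panel, blue for control IgG, brown for 6-3-A6 and a grey line at equal levels. Tumors spread along the line for Krt19 (r = 0.89), less so for Krt14 (r = 0.72) and Krt5 (r = 0.69), and all tumors lie below it for Krt18.

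The members most like each other belonged to the basal layer. Over the 20 libraries the r of Krt5 was 0.83 with Krt14, 0.86 with Krt1 and 0.85 with Krt10, the last 2 being the keratin pair of the upper epidermis. The genes outside the family that were most like Krt5 were Dsg1a (r = 0.81), Gars (r = 0.78) and Spink5 (r = 0.77). For Krt14 they were Dsg1a (r = 0.70), Dmkn (r = 0.66) and Spink5 (r = 0.66). Dsg1a encodes a desmosomal cadherin and Spink5 a protease inhibitor of the epidermis.

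For the simple keratins the nearest genes were others. They were Fkbp4, Rin1 and Cdk5rap3 for Krt8 (r from 0.85 to 0.88), Steap1, Slc1a4 and Smim3 for Krt18 (r from 0.93 to 0.94), Fanci, Plin1 and Ccne2 for Krt19 (r from 0.81 to 0.83), and Car3, Lgals12 and Cdo1 for Krt7 (r from 0.82 to 0.83). For Krt17 they were Rtel1, Shmt2 and Cdc20 (r from 0.69 to 0.74). Each r is a description over 20 libraries that share tumors and fractions.

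Treatment was compared in input, which played no part in the choice of Krt20. None of the 5 members tested, Krt8, Krt18, Krt19, Krt5 and Krt14, was called between 6-3-A6 and control IgG, against 0% of all 13683 genes tested with edgeR (180 at an unadjusted p under 0.05, 0 called by DESeq2). The log2 fold changes of 6-3-A6 over control IgG were −0.16 (SE 0.22) for Krt8, −0.33 (SE 0.21) for Krt18, −0.05 (SE 0.64) for Krt19, −0.86 (SE 0.67) for Krt5 and −0.63 (SE 0.68) for Krt14. Without control IgG input 1 that of Krt5 was −0.23. Krt20 fell under the filter there, with levels of 0.0566 to 0.508 CPM in control and 0.105 to 0.676 CPM in treated input, which overlapped.

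The IP over input difference was also compared between treatments. No member was called for this interaction, nor was any of 14488 genes (0%) with edgeR, where 125 had an unadjusted p under 0.05 and DESeq2 called 0. Its estimate was 0.14 (SE 0.39, 95% interval −0.62 to 0.89) for Krt8 and −0.18 (SE 0.34, 95% interval −0.86 to 0.49) for Krt18. For Krt19, Krt5, Krt14 and Krt7 the estimates were −0.06, 0.52, 0.35 and −1.19, with SE between 0.96 and 1.11. For Krt20 the estimate was 0.80 (SE 0.96), a description. It lay between 0.49 and 1.49 with each library left out (1.49 without control IgG IP 3).

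Within the IP, treatment is the contrast by which Krt20 was chosen, so the values are a description. Over the 6 libraries kept by the study, control IgG IP 2, 4 and 5 ran from 2.78 to 5.06 CPM of Krt20 and 6-3-A6 IP 1, 3 and 4 from 20.7 to 32.3 CPM, a fitted 6.49-fold difference (SE 0.27 on the log2 scale). In these 6 libraries 4.61% of genes were called by edgeR, and no member other than Krt20, whose own call the choice fixed, was among them. Krt18 was called as well with DESeq2 (1190 genes called) and without the filter on low counts (1459 genes called). The 4 libraries left out by the study were at 10.2 and 21.9 CPM of Krt20 (control IgG IP 1 and 3) and at 9.07 and 4.11 CPM (6-3-A6 IP 2 and 5). These 4 had the opposite order, each control library above each treated one. With all 10 IP libraries, Krt20 had a log2 fold change of 1.04 (SE 0.60, and 1.72 without control IgG IP 3), the treatments overlapped, and 0% of 13602 genes were called by edgeR (292 at an unadjusted p under 0.05, 0 called by DESeq2).

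**Figure D5:**
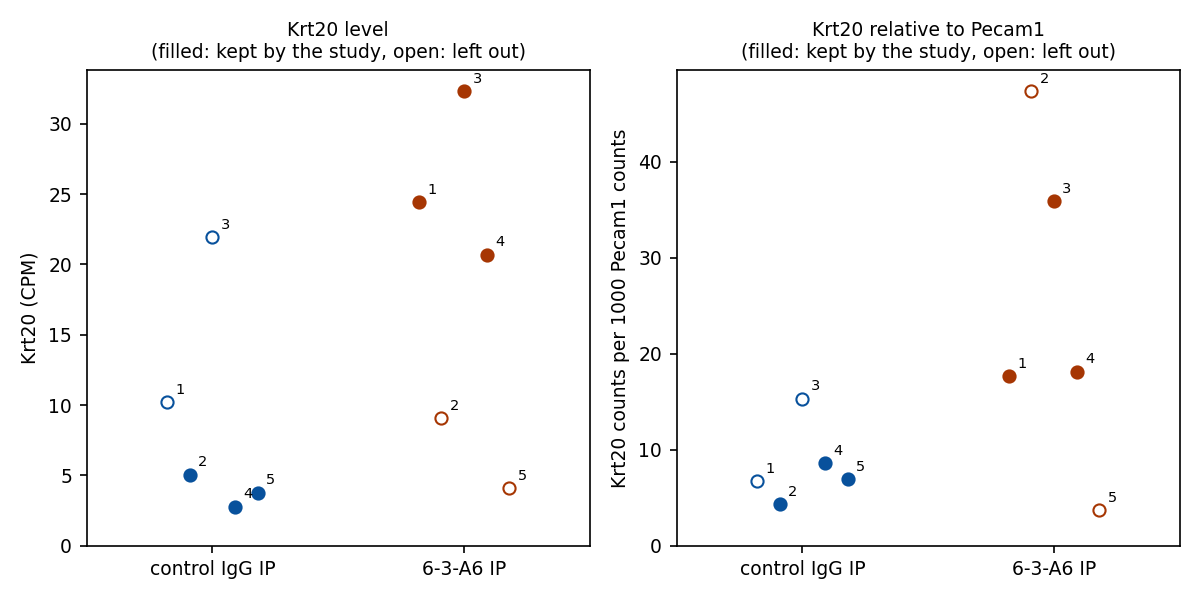
Krt20 in the 10 IP libraries, as CPM on the left and as counts per 1000 Pecam1 counts on the right, with the tumor number beside each point, filled points for the 6 libraries kept by the study and open points for the 4 left out. Filled points of the treatments are apart in both panels, while in CPM the open points of control IgG (10.2 for tumor 1, 21.9 for tumor 3) lie within the range of 6-3-A6, and those of 6-3-A6 (9.07 for tumor 2, 4.11 for tumor 5) within that of control IgG. On the right, 6-3-A6 IP 5 (3.70) lies below every control IgG library.

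The other members had log2 fold changes of 6-3-A6 over control IgG from −0.999 to −0.63 in the 6 kept libraries, with −0.63 (SE 0.20) for Krt8, −0.79 (SE 0.24) for Krt18, −0.88 (SE 0.71) for Krt19, −0.999 (SE 0.50) for Krt5, −0.97 (SE 0.53) for Krt14 and −0.65 (SE 0.48) for Krt7. With each of the 6 libraries left out, Krt19 lay between −2.62 (without 6-3-A6 IP 4) and −0.30 (without control IgG IP 5), and without control IgG IP 2 Krt14 was −0.12 and Krt5 −0.42. Over all 10 IP libraries the values were −0.023 (SE 0.31) for Krt8, −0.52 (SE 0.26) for Krt18, −0.12 (SE 0.80) for Krt19, −0.35 (SE 0.60) for Krt5 and −0.29 (SE 0.69) for Krt14. Of these, the values of Krt5 and Krt14 turned positive without control IgG IP 2 (0.13 and 0.47), that of Krt19 without control IgG IP 5 (0.58) or 6-3-A6 IP 1 or 3, and that of Krt8 without control IgG IP 4 or 5 or 6-3-A6 IP 1, 3, 4 or 5 (up to 0.10). The median of all genes was −0.05 in the 6 libraries and 0.01 in the 10.

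Of the 46 keratins outside the list, 4 held no count in any library and 8 passed the filter. In control IgG 1 of the 8 was called higher in IP (8.28% of all genes tested) and in 6-3-A6 2 were (12.8%), and none was called lower (3.1% and 13.5%). Krt222, a type I keratin, went from 0.245 ± 0.101 to 1.03 ± 0.508 CPM (SD, n = 5) in control IgG, a log2 fold change of 2.02 (SE 0.58, adjusted p = 0.0275), and rose by 1.91 (SE 0.56, adjusted p = 0.0157) in 6-3-A6. The control call of Krt222 held in 19 of 25 alternatives and was lost with the 6 tumors kept by the study and without control IgG input 1, 2 or 3 or control IgG IP 1 or 3, and its treated call was lost without 6-3-A6 IP 4 (adjusted p = 0.0697). Krt23, also type I, was called in 6-3-A6 (3.65, SE 0.91, adjusted p = 0.00575, with 2.79 without 6-3-A6 IP 4 and 4.46 with the 6 tumors) and not in control IgG (2.69, adjusted p = 0.0695). There it was called in 5 of 25 alternatives, with the tumor as a block (adjusted p = 0.0259), with DESeq2 (adjusted p = 0.0380) and without control IgG IP 4 or 5 or 6-3-A6 IP 4. Its input libraries held 0 to 3 counts, so its fitted fold depends on the prior count. Krt222, with 1 to 12 counts per input library, and Krt23 passed the filter on low counts through their IP libraries, so nothing is read from the count of keratins called. Without the filter, the adjusted p was 0.0403 and 0.0197 for Krt222 and 0.0889 and 0.00496 for Krt23, in control IgG and 6-3-A6.

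Per kilobase of span, the most abundant keratins outside the list were Krt10, Krt1 and Krt16. Krt10 had 4.29 ± 4.03 CPM in control input and 5.45 ± 3.89 CPM in control IP, and Krt1 had 4.28 ± 4.78 CPM and 5.29 ± 4.18 CPM (SD, n = 5 each). None of the 3 was called in IP against input in either treatment.

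Partners of keratin filaments were read from lists set with earlier results known. Each count of called genes stands against the shares of all genes tested, which were 8.28% higher and 3.1% lower in control IgG, and 12.8% higher and 13.5% lower in 6-3-A6. Of 16 genes of desmosomes and keratin anchors, 14 were tested, with 1 called higher in control IgG and 3 higher and 1 lower in 6-3-A6 (median log2 fold change −0.15 and −0.23, against −0.05 and −0.07 over all genes). Jup, the junction protein plakoglobin that is also found at endothelial junctions, was 2.47 (SE 0.30, adjusted p = 5.47e-06) higher in control IP and 3.41 (adjusted p = 1.26e-07) higher in 6-3-A6 IP. Perp, a desmosomal membrane protein, was lower in 6-3-A6 IP (−1.48, adjusted p = 0.00576). Among 14 other intermediate filament genes, 7 were tested, and Nes, which encodes nestin, was higher in IP by 2.18 and 2.54 (adjusted p = 6.23e-06 and 8.12e-07). Des, the muscle filament desmin, was lower in control IP (−1.51, adjusted p = 0.0474), and Vim, the vimentin of mesenchymal and endothelial cells, had values of −0.15 and 0.01 with adjusted p of 0.628 and 0.976.

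Epithelial genes other than keratins were present in the IP too, with the same shares of all genes tested beside each count (8.28% higher and 3.1% lower in control IgG, 12.8% and 13.5% in 6-3-A6). Of 22 simple epithelial genes 9 were tested, with 1 higher and 0 lower in control IgG and 0 called in 6-3-A6 (median −0.06 and −0.52). The gene called was Spint2 (1.83, adjusted p = 0.0204), and the defining genes Epcam and Cdh1 had log2 fold changes of −0.05 and −0.38 in control IgG and −1.25 and −0.98 in 6-3-A6 (adjusted p = 0.962, 0.542, 0.103 and 0.0558). The summed level of this list was 87.9 to 168 CPM in control input and 63.3 to 142 CPM in control IP, and 82.7 to 139 CPM and 57.7 to 118 CPM in 6-3-A6. Elf3 is listed at 0. Of 8 luminal mammary genes 4 were tested, with 0 called in control IgG and Areg lower in 6-3-A6 (−1.78, adjusted p = 0.00373). Of 5 myoepithelial genes, all tested, Trp63, a master regulator of basal epithelium, was lower in IP (−0.94 and −0.82, adjusted p = 0.0482 and 0.0476) and Mylk higher (1.67 and 2.19, adjusted p = 9.33e-05 and 2.93e-06). The part of epithelial RNA in the keratin levels of the IP was not tested.

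Markers of other cells had the following values, against 3.1% of all genes called lower in control IgG and 13.5% in 6-3-A6, and 8.28% and 12.8% called higher. Of 13 macrophage genes 12 were tested, with 0 higher and 2 lower in control IgG and 0 higher and 4 lower in 6-3-A6 (median −0.58 and −0.83), led by Cd68 (−0.99, adjusted p = 0.0179, in control IgG), and Itgam is listed at 0. Of 10 fibroblast genes 1 was lower in control IgG, Dpt (−1.40, adjusted p = 0.0202), and 3 were lower in 6-3-A6. Of 7 mural genes 2, Kcnj8 and Abcc9, were higher in both treatments (3.41 and 2.60 in control IgG). None of 5 adipocyte genes and not the 1 tested of 5 mesothelial genes was called. Beside these stand the log2 fold changes of −0.77 and −0.95 for Krt18, and the part of any of these cells in its level was not tested.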

How the data were processed

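RNA from input and IP of 10 Py8119 tumors was sequenced with single-end runs. The authors used STAR 2.7.4a for alignment, counted reads with featureCounts 2.0.1 (the submitters' notes also list 1.5.2) and deposited raw counts of reads per gene for 20 libraries. Gene positions in the table are those of GRCm39, whereas the methods name mm10, and lengths equal whole spans, introns included. Strandedness is not given in the sources used here. A second table holds the authors' normalized counts, fold changes and p-values for 3 against 3 IP libraries. Its values were not used, and its header gave the 6 libraries kept by the study.

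Groups were compared with edgeR 4.0.16 (TMM, filterByExpr, quasi-likelihood F test) in R 4.3.3, with 4 group means over 20 libraries for IP against input and separate fits for the treatments in input and in IP. p-values were adjusted over all genes tested (Benjamini-Hochberg), and called means an adjusted p under 0.05. Intervals are the estimate ± 1.96 SE. DESeq2 1.42.0 was an alternative. Log2 CPM used a prior count of 2. Relations used 100000 permutations, and ratios exact permutation (SciPy 1.17.1). Replicates are separate tumors. Scripts were tested on simulated counts.

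Input and IP of a tumor share its number in the titles, and the methods took input from the same supernatant. Their deviations from the group means correlated between −0.08 and 0.70 over 10 tumors, so the tumor was used as a block in an alternative. Further alternatives were RLE normalization, no filter on low counts, the 6 kept tumors, fits on 1 treatment and each library left out.

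The members, lists and named genes were chosen with earlier results of these data known. Named are the 8 members, the 3 most abundant other keratins per span and those called in IP against input, the called gene with the largest and smallest change of each list (control IgG), Pecam1, Cdh5, Epcam, Cdh1 and Vim, and the 3 genes most like each member. The contrast over both treatments, the Krt8 to Krt18 ratio and the naming of Areg, Perp and the epidermal genes were added after the values were seen.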

Additional observations from a re-analysis of the deposited data

Results flagged for a closer look

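Of the 32 groups of 5 libraries examined, 8 keratins in 4 groups, 1 held a library far from the others. Krt8 in 6-3-A6 IP 2 reached 262 CPM (262.5), while the other 4 libraries of the group ran from 85.3 to 118 CPM. Its gap to the nearest, divided by the range of the 5 libraries, exceeded Dixon's critical value of 0.71. Chance flags about 1 in 20 groups. The same library had the lowest endothelial mean of the 10 IP libraries (5.45 log2 CPM, where the others ran from 5.67 to 7.88). It also had the highest ratio of Krt8 to Krt18 (1.94) and the highest ratio of Krt20 to Pecam1 (47.4 per 1000). Without this library the IP over input log2 fold change of Krt8 was −0.58 (SE 0.22, adjusted p = 0.0615) in 6-3-A6, against −0.18 with it, and −0.45 (adjusted p = 0.0238, edgeR) over both treatments. The part of any of these in the Krt8 level was not tested.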

How the results depend on the processing

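Of 1341 alternative values, 33 moved (counts by over 1.5 times, values by more than the spread between replicates), 34 tested values reversed, 16 lost and 11 gained a call. The other 1247 include 12 changes of sign in the untested values between treatments in all 10 IP libraries, each smaller than that spread. The calls of Krt20 in control IgG and of Krt18 in 6-3-A6 and over both treatments held in every alternative. In control IgG the members called fell from 2 to 1 without the filter on low counts, with the 6 tumors kept by the study and in the fit on 1 treatment, and lay between 1 and 2 when each library was left out. Over both treatments they were 2 to 3 (Krt8 came in without 6-3-A6 IP 2). The cause was not tested. Genes called in control IgG numbered 3249 with the replicate block, 607 with the 6 tumors (fewer samples) and 1088 to 2385 with each library left out (1088 without control IgG IP 3), against 1649. Genes called in 6-3-A6 numbered 2507 in the fit on 1 treatment, and genes called over both treatments 3602 with the 6 tumors. With the replicate block the genes called numbered 5554 in 6-3-A6 and 7236 over both treatments, and apart from Krt14 over both treatments and Krt23 in control IgG it changed no call of a keratin named here.

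For treatment in the IP of the 6 kept tumors, genes called numbered 646, and 1190 with DESeq2, 1459 without the filter and 9 to 653 with each library left out, a drop of over 1.5 times without control IgG IP 4 or 6-3-A6 IP 1, 3 or 4. Members called were 2 with DESeq2 and 2 without the filter, Krt20 and Krt18 in both. Members whose IP and input levels were related numbered 3 with a prior count of 0.5 and 1 to 3 with each tumor left out (3 without control IgG 4, 2 without 6-3-A6 5 or control IgG 5). The share of all genes with such a relation was not computed. Without control IgG 1 they were 2, Krt5 and Krt14 (adjusted permutation p = 0.0486 each), and Krt19 dropped out (0.0635). The Krt8 to Krt18 difference in 6-3-A6 (0.71) lost its call with the replicate block, which 5 pairs cannot pass, and in control IgG it lay between 0.34 and 0.61 with each library left out.

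Values near 0 changed sign. The interaction of Krt19 was 0.00132 without the filter, and that of Krt8 −0.30 and of Krt14 −0.24 with the 6 tumors. The treatment difference of Krt19 in input was 0.38 with the replicate block of numbers shared by different animals, which do not pair them. With each library left out, the lowest and highest values were −0.36 and 0.74 for Krt5 and −0.040 and 1.25 for Krt14 in control IgG, −0.13 and 0.27 for Krt7 over both treatments, and −0.36 and 0.24 for Krt19 in input between treatments. For the interaction they were −0.57 and 0.62 (Krt19), −0.12 and 0.99 (Krt5), −0.19 and 1.10 (Krt14) and −0.26 and 0.28 (Krt8). Between treatments in all 10 IP libraries they were −0.43 and 0.10 (Krt8), −0.61 and 0.58 (Krt19), −0.82 and 0.13 (Krt5) and −0.73 and 0.47 (Krt14). Depth limits Krt7, Krt17 and the input level of Krt20, which rest on 0 to 23 counts per library.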

Other observations

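Keratins of the upper epidermis were lowest in 1 control tumor, in values looked at after the results were known. Krt1 held 0 counts in both input and IP of control IgG tumor 3, while the other control tumors ran from 1.08 to 10.2 CPM in input and from 3.26 to 11.2 CPM in IP. The same tumor had the lowest Krt10 in both fractions, at 0.427 CPM in input and 0.275 CPM in IP. Flg, which encodes the skin barrier protein filaggrin, and Dsg1a also held 0 counts in both of its libraries. Lor, which encodes the cornified envelope protein loricrin, held 7 counts in input and 12 in IP there (0.597 and 0.659 CPM), and was lower in the input of tumor 4 (0.509 CPM) and the IP of tumor 5 (0.550 CPM). In other tumors the fractions differed. In control IgG tumor 4, Krt1 was at 1.08 CPM in input and 6.88 CPM in IP, Krt10 at 1.64 and 5.30 CPM and Flg at 0.566 and 5.17 CPM, whereas in 6-3-A6 tumor 4 Flg was at 15.0 CPM in input and 1.11 CPM in IP. No relation between the fractions was computed for these genes.

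Krt77, a keratin of sweat gland ducts and skin, was concentrated in 1 tumor. Control IgG tumor 1 had 4.96 CPM in input (89 counts) and 2.11 CPM in IP (35 counts). The other 18 libraries held 0 to 5 counts each. That tumor also had the highest Flg, at 19.0 CPM, and the highest Krtdap, at 4.29 CPM, both in input. Skin in these tumor samples was not measured separately.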
